A study of Homo sapiens with 6 samples.

Results

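The neutrophil-attracting CXCL chemokines and CCL20 were followed in DCIS.COM cells with and without knockdown of BCL9. The set holds 7 of the 58676 genes in the deposited expression table, namely CXCL1, CXCL2, CXCL3, CXCL5, CXCL6, CXCL8 and CCL20. These genes were chosen by name with their measured BCL9 KD and NS control values already known, so the differences between the groups in these 7 genes are descriptions and carry no test. CXCL5 and CXCL6 were listed at 0 in every library, and the other 5 genes had reads in all 6 libraries.

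DCIS.COM is an established human breast cell line of the basal type, used as a model of ductal carcinoma in situ. Both groups were grown in DMEM/F12 with 5% horse serum and had been transduced with a lentiviral PLKO.1 vector. The NS control cells carried a non-silencing shRNA and the BCL9 KD cells carried a single shRNA against BCL9, a co-activator of β-catenin in Wnt signalling. Each group had 3 libraries from 3 flasks, so a p-value measures the spread between flasks of a line and not between independent knockdown lines.

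CXCL chemokines with a glutamate-leucine-arginine (ELR) motif ahead of the first cysteines act through CXCR2 on neutrophils, and CXCL8 and CXCL6 also act through CXCR1. Epithelial cells make them on stimulation with interleukin-1, TNF or IL-17, through NF-κB and AP-1, and their mRNAs are short-lived because decay factors bind the AU-rich elements. CCL20 is a CC chemokine that acts through CCR6 on dendritic cells, B cells and Th17 cells, and it is induced by the same stimuli in many epithelia.

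The 6 CXCL genes lie within 358.8 kb on chromosome 4 in the coordinates of the table (hg38). From the centromere side, CXCL8 (73740506 to 73743716), CXCL6 (73836497 to 73849064) and CXCL1 (73869393 to 73871242) are on the plus strand. They are followed by CXCL5 (73995642 to 73998779), CXCL3 (74036589 to 74038807) and CXCL2 (74097035 to 74099293) on the minus strand. CCL20 is on the plus strand of chromosome 2 (227813842 to 227817564).

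The bases upstream of the RefSeq start of each gene (GRCh38.p14, strand of the gene, 5′ to 3′) are shown because all 7 hold a κB match at a similar place. In the 30-base stretches below, capitals mark the bases covered by a match to the κB consensus or to the relaxed κB motif GGANTTTCC on either strand. These matches overlap each other, and the consensus is matched on both strands in CXCL1, CXCL2, CXCL3, CXCL5 and CXCL6.
CXCL1, chr4:73869304-73869333, plus strand: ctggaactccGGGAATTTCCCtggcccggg
CXCL2, chr4:74099254-74099283, minus strand: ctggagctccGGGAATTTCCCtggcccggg
CXCL3, chr4:74038749-74038778, minus strand: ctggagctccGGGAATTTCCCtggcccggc
CXCL5, chr4:73998749-73998778, minus strand: catgagttcaGGGAATTTCCCcagcatccc
CXCL6, chr4:73836578-73836607, plus strand: cctgagttcaGGGAATTTCCCcagcatccc
CXCL8, chr4:73740468-73740497, plus strand: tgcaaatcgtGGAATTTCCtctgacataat
CCL20, chr2:227813753-227813782, plus strand: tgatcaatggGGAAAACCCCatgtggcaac

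The first capital letter lies 78 to 91 bases upstream of the RefSeq start. CXCL1, CXCL2, CXCL3, CXCL5 and CXCL6 share the same 11 capitals. The flanks fall into a CXCL1, CXCL2 and CXCL3 kind and a CXCL5 and CXCL6 kind, with CXCL8 and CCL20 apart from both. Over 250 bases upstream, the identity was 81.4% between CXCL1 and CXCL3, 70.4% between CXCL1 and CXCL2, and 85.3% between CXCL5 and CXCL6. For CXCL1 and CCL20 the RefSeq start is also the start in the table. For the other 5 genes the table places the gene's first base 63 to 181 bases further upstream.

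Among 35116 RefSeq promoters searched over the same 250 bases on both strands, 9.96% held the κB consensus and 1.45% held GGANTTTCC. The consensus was present in 6 of the 7 chemokine promoters and GGANTTTCC in 6 of 7. The AP-1 motif TGANTCA was matched in CXCL8, against 6.57% of all promoters. The C/EBP motif TTGCNNAA was matched in CXCL2, against 9.05%. The STAT motif TTCNNNGAA was matched in CXCL5 and CXCL6, against 6.57%, and in both genes it overlaps the κB match. The TCF/LEF motif CTTTGAT was matched in CXCL8, against 2.26%. The TATA box TATAAA was matched in CXCL8 and CCL20, against 10.7%. CXCL5 and CXCL6, with the same 11-base κB stretch as CXCL1, were the genes without reads.

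A longer stretch is given for CXCL1 and CCL20, where table and RefSeq agree on the start, with the κB matches in capitals as before. Each holds the 130 bases just upstream of the start, which for CCL20 include the TATA box.
CXCL1, chr4:73869263-73869392, plus strand: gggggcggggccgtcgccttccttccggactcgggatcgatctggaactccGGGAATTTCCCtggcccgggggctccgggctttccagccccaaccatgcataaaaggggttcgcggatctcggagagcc
CCL20, chr2:227813712-227813841, plus strand: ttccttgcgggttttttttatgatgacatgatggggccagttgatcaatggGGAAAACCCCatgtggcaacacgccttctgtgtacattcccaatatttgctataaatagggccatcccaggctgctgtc

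Values below are FPKM, the reads on a gene relative to gene length and to library depth, which allows levels to be set side by side between genes. Reads counted on genes were between 15222452 and 26949026 per library. BCL9 itself was lower in every BCL9 KD library, with a log2 fold change of −0.99 (SE 0.0933, limma adjusted p = 0.0077), a call lost without NS control replicate 2, BCL9 KD replicate 2 or BCL9 KD replicate 3 (limma adjusted p of 0.0636, 0.06 and 0.07). NS control replicate 1 stood apart: the correlation of its deviations with GC content across genes was 0.48, against −0.227 to 0.0452 in the other 5 libraries. Values without it are therefore given for the chemokines with reads and for the called genes that moved by more than 0.1 on the log2 scale. The GC content of the transcripts was 50.8% for CXCL1, 56.7% for CXCL2, 51.9% for CXCL3, 35.3% for CXCL8 and 37.9% for CCL20, with a median of 49.2% over the genes tested.

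CXCL1, a ligand of CXCR2, was by far the most abundant of the set. It was at 89.2, 90.3 and 96.0 FPKM in NS control replicates 1, 2 and 3, from 2627, 2368 and 1894 reads. In BCL9 KD it was at 161, 230 and 217 FPKM, from 3699, 8038 and 4404 reads. The groups did not overlap, and the lowest BCL9 KD library was 1.68 times the highest NS control library. The means were 91.9 ± 3.63 and 203 ± 36.4 FPKM (SD, n = 3), a ratio of 2.21. The difference on the log2(FPKM + 0.5) scale was 1.12 (SE 0.135), and 1.10 without NS control replicate 1. Among all genes of a library, CXCL1 held rank 296 to 354 by FPKM in NS control and rank 132 to 168 in BCL9 KD.

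CXCL8, or interleukin-8, which binds both CXCR1 and CXCR2, was the next most abundant. It was at 11.9, 13.2 and 13.4 FPKM in NS control, from 613, 608 and 464 reads, and at 27.5, 31.0 and 29.7 FPKM in BCL9 KD, from 1107, 1902 and 1059 reads. Within each group the libraries lay close together, and every BCL9 KD value was at least 2.05 times every NS control value. The ratio of the means was 2.29 and the log2 difference was 1.17 (SE 0.0805). It was 1.11 without NS control replicate 1 and 0.96 after a correction for GC content.

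CCL20 was at 1.28, 1.40 and 2.69 FPKM in NS control, from 39, 38 and 55 reads. It was at 4.09, 5.61 and 6.18 FPKM in BCL9 KD, from 97, 203 and 130 reads. NS control replicate 3 was higher than the other 2 control libraries, and all BCL9 KD libraries lay above it. The ratio of the means was 2.96 and the log2 difference was 1.37 (SE 0.250), or 1.22 without NS control replicate 1 and 1.15 after the GC correction.

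CXCL2, close in sequence to CXCL1 and also a CXCR2 ligand, was at 1.03, 0.857 and 0.569 FPKM in NS control, from 35, 26 and 13 reads. In BCL9 KD it was at 2.38, 2.77 and 2.43 FPKM, from 63, 112 and 57 reads. The groups did not overlap, and the lowest BCL9 KD library was 2.31 times the highest NS control library. The ratio of the means was 3.09 and the log2 difference was 1.21 (SE 0.159), or 1.33 without NS control replicate 1.

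CXCL3, the third of the closely related CXCR2 ligands, was the least abundant gene with reads. It was at 0.238, 0.156 and 0.355 FPKM in NS control, from 12, 7 and 12 reads, and at 0.535, 1.02 and 0.949 FPKM in BCL9 KD, from 21, 61 and 33 reads. The groups did not overlap, but the counts were small, and the exact 95% Poisson interval for the 7 reads of NS control replicate 2 was 2.81 to 14.4. These intervals cover counting error only. CXCL3 passed the filter of a mean of 0.5 FPKM through its BCL9 KD values alone. The ratio of the means was 3.34, while the log2(FPKM + 0.5) difference was 0.82 (SE 0.221), because the added 0.5 FPKM is larger than the control values. It was 0.81 without NS control replicate 1.

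CXCL5 and CXCL6 had no read in any of the 6 libraries, and no fold is given for them. The limit set for a count of 0 was 3 reads, a one-sided 95% limit, which corresponds to 0.0439 to 0.0777 FPKM for CXCL5 and 0.0510 to 0.0903 FPKM for CXCL6, depending on the library.

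**Figure D1:**
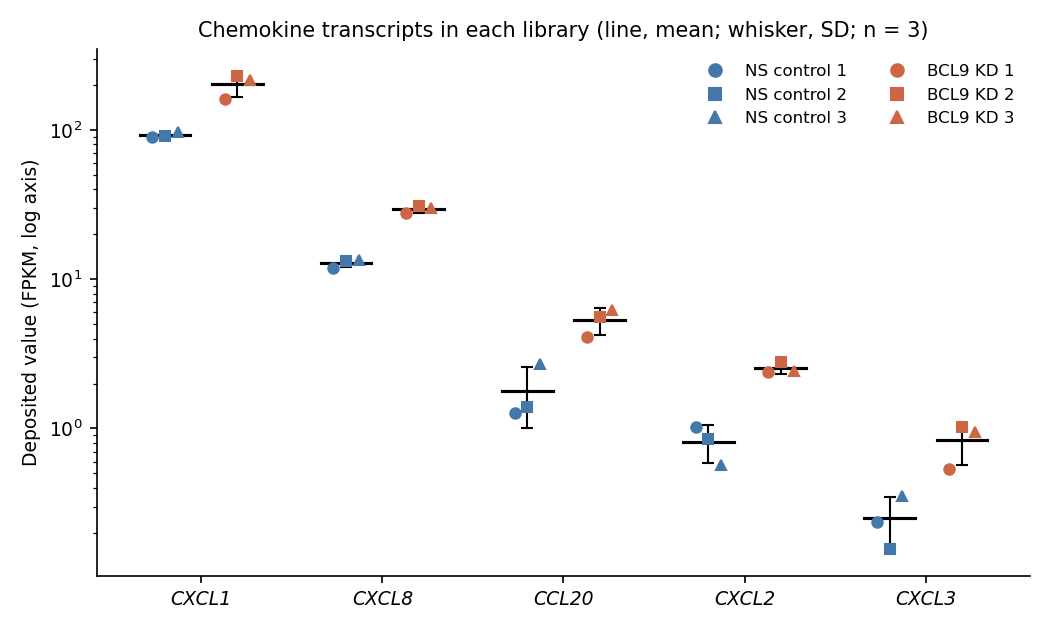
FPKM (log axis) of the 5 chemokine genes with reads in each of the 3 NS control (blue) and 3 BCL9 KD (orange) libraries, with marker shape for the replicate number, a line for the group mean and a whisker for the SD. For every gene the 3 BCL9 KD points lie above the 3 NS control points, and BCL9 KD replicate 1 is the lowest of its group.

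The order of the levels was CXCL1, CXCL8, CCL20, CXCL2 and CXCL3 in both groups. In each group every gene's lowest library was above the highest library of the gene next in order. CXCL1 made up 82.4% to 86.1% of the summed FPKM of the set in each library. That sum was 107.5 ± 4.88 FPKM in NS control and 240.9 ± 39.6 FPKM in BCL9 KD (SD, n = 3). The balance between the 2 abundant genes was similar in the groups: the ratio of CXCL1 to CXCL8 was 6.83 to 7.52 in NS control and 5.86 to 7.42 in BCL9 KD. The ratio of CXCL1 to CCL20 ranged from 35.7 to 69.8 in NS control and from 35.1 to 41.0 in BCL9 KD, and these ranges overlapped too.

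Of the 7 genes, 4 passed the adjusted p threshold upwards (CXCL1, CXCL2, CXCL8 and CCL20), beside 2.96% of the 13745 genes tested. For 5 genes all BCL9 KD values were above all NS control values, as they were for 17.8% of the genes tested. Since the genes were selected on this comparison, these counts only describe the set. The count was 3 without NS control replicate 1, 1 without NS control replicate 2, 1 without BCL9 KD replicate 2 and 0 without BCL9 KD replicate 3. Over all genes the calls also fell steeply without these last 3 libraries, from 807 (5.87% of the genes tested) to 12, 13 and 5. The log2 differences themselves moved less, between 1.02 and 1.28 for CXCL1, 1.11 and 1.21 for CXCL8, 1.07 and 1.33 for CXCL2, 1.22 and 1.64 for CCL20 and 0.72 and 0.99 for CXCL3 when each library was left out in turn. The median difference over the 5 genes was 1.17, against 0.04 over all genes tested.

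BCL9 KD replicate 1 was the lowest of the BCL9 KD libraries for all 5 genes, as it was for 37.8% of the genes tested. In bulk RNA, a larger number of cells making a chemokine and more of its RNA per cell cannot be told apart. Reads from CXCL1, CXCL2 and CXCL3 may be partly shared, since 4.57% of the 50-base windows of CXCL1 transcripts, 13.4% of those of CXCL2 and 6.01% of those of CXCL3 also occurred in transcripts of another of these 3 genes. No such window was shared by CXCL5, CXCL6, CXCL8 or CCL20 with any CXCL gene.

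**Figure D2:**
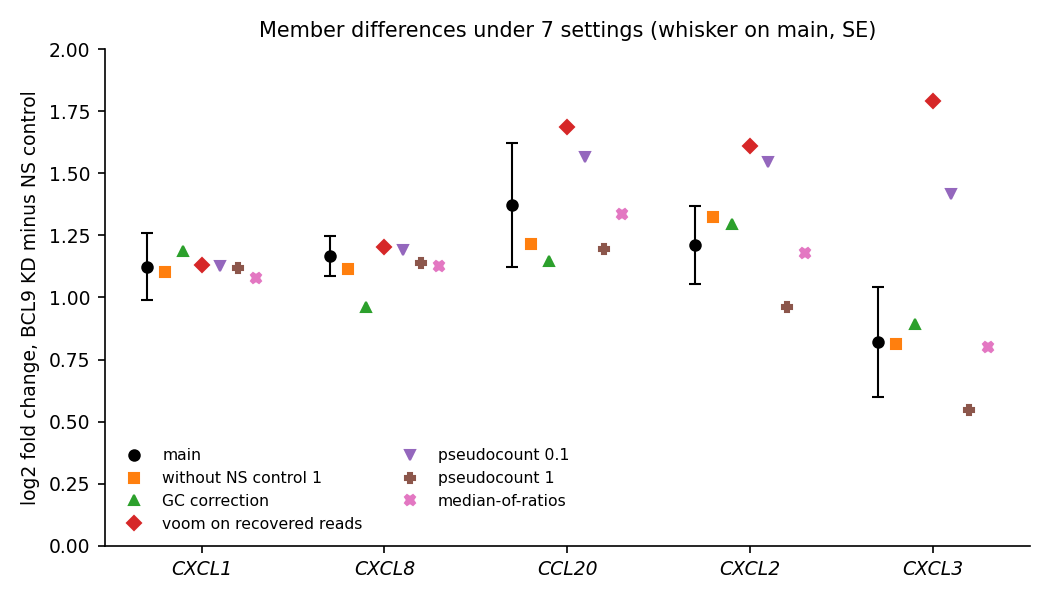
Log2 fold change, BCL9 KD minus NS control, of the 5 chemokine genes with reads under 7 settings, with the SE as a whisker on the main value. CXCL1 lies between 1.08 and 1.19, and CXCL8 between 0.96, with the GC correction, and 1.20. The low genes CCL20, CXCL2 and CXCL3 move further with the value added before the log and reach 1.69, 1.61 and 1.79 with voom on the recovered reads.

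The receptors of these chemokines were close to absent from the cells. Over all 6 libraries together CXCR1 had 2 reads, CXCR2 had 2, the decoy receptor ACKR1 had 4 and CCR6 had 0, and 0 of the 4 genes were tested. Among the other genes of the ELR and platelet factor family in the same cluster, PF4V1 had 0 reads, PPBP had 2 and PF4 had 6.

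The genes within 1 Mb on either side of the CXCL cluster were compared to see how far along the chromosome the difference extended. The window held 39 genes other than the chemokines followed here, of which 11 were tested. Of these, 2 rose and 0 fell, and 9 had all BCL9 KD values above all NS control values, beside 2.96%, 2.91% and 17.8% of all genes tested. Both that rose are ligands of the EGF receptor family on the CXCL2 side. AREG, amphiregulin, was at 29.8, 28.3 and 33.2 FPKM in NS control and at 63.3, 77.5 and 80.4 FPKM in BCL9 KD, a log2 fold change of 1.26 (SE 0.111, limma adjusted p = 0.0074). EREG, epiregulin, was at 20.6, 27.6 and 28.8 FPKM in NS control and at 47.0, 43.6 and 46.1 FPKM in BCL9 KD, a log2 fold change of 0.83 (SE 0.129, limma adjusted p = 0.0236). Without NS control replicate 1 EREG was at 0.68. Neither was called without NS control replicate 2, BCL9 KD replicate 2 or BCL9 KD replicate 3, and 4 genes of the window were called without NS control replicate 3.

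The other EGF receptor ligands of the window did not pass the test. BTC, betacellulin, had a log2 fold change of 0.80 (SE 0.201, limma adjusted p = 0.0622) and EPGN, epigen, of 0.54 (SE 0.186, limma adjusted p = 0.121). In NS control replicates 1, 2 and 3 BTC was at 0.563, 1.32 and 1.00 FPKM and EPGN at 3.11, 5.12 and 5.36 FPKM. Replicate 1 was thus the lowest control for both. On the CXCL2 side, all 7 tested genes had all BCL9 KD values above all NS control values, beside 17.8% of all genes tested. Their median log2 fold change was 0.57, against 0.04 over all genes tested. On the CXCL8 side, 2 of 4 genes lay above in this way, 0 were called, and the median was −0.01. RASSF6, the nearest tested gene on that side, had a log2 fold change of 0.76 (SE 0.271, limma adjusted p = 0.130). It was at 1.88 FPKM in NS control replicate 1, against 3.26 and 4.81 FPKM in replicates 2 and 3. Genes that lie side by side are not independent of each other, and no test of the window was made.

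**Figure D3:**
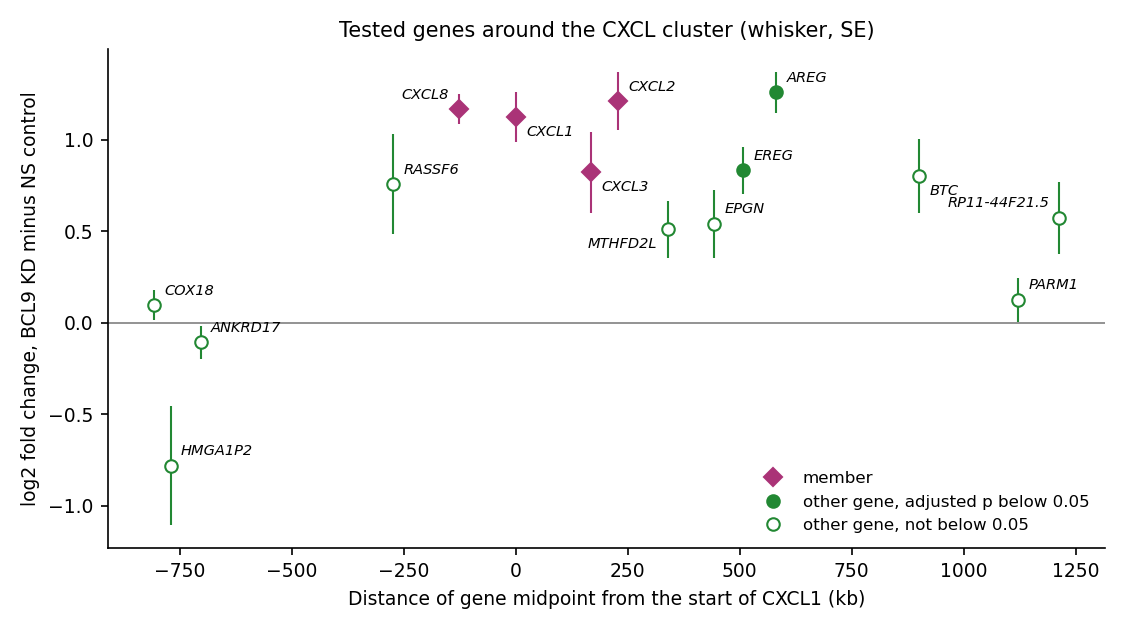
Log2 fold change, BCL9 KD minus NS control, with SE as whisker, of the tested genes around the CXCL cluster, against the distance of the gene's midpoint from the start of CXCL1 in kb. The 4 CXCL genes (diamonds) and AREG lie between 0.82 and 1.26, and only AREG and EREG among the 11 others are filled, for a limma adjusted p below 0.05.

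Among the other chemokines, 0 of the genes tested rose and 2 fell, beside 2.96% and 2.91% of all genes tested. Of 8 CXCL genes without the ELR motif, 3 were tested, 0 rose and 1 fell, namely CXCL14, a chemokine of resting epithelia. It went from 1.49, 1.53 and 1.60 FPKM in NS control to 0.716, 0.564 and 0.743 FPKM in BCL9 KD, a log2 fold change of −0.80 (SE 0.129, limma adjusted p = 0.0273). Of 26 other CC, XC and CX3C chemokine genes, 20 had no reads and 3 were tested. CCL28, an epithelial chemokine that acts through CCR3 and CCR10, fell with a log2 fold change of −0.62 (SE 0.122, limma adjusted p = 0.0397). With each library left out in turn, this call held only without NS control replicate 3. The interferon-induced CXCL10 (limma adjusted p = 0.602) and CCL2, a monocyte attractant (limma adjusted p = 0.87), overlapped between the groups. CX3CL1, fractalkine, the most abundant tested gene of these lists, was at 16.0, 13.99 and 14.6 FPKM in NS control and at 17.8, 17.1 and 17.5 FPKM in BCL9 KD without passing the test (log2 fold change 0.23, limma adjusted p = 0.109). It was called higher with the GC correction, where 1 gene of its list rose and 1 fell.

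Among 18 genes for the inducing cytokines, their receptors and the interleukin-1 receptor antagonist, 8 were tested. Of these, 2 rose and 0 fell, beside 2.96% and 2.91% of all genes tested. IL1A was at 1.62, 2.54 and 3.06 FPKM in NS control and at 10.6, 11.6 and 11.1 FPKM in BCL9 KD, a log2 fold change of 2.03 (SE 0.184, limma adjusted p = 0.0075). IL1B was at 1.02, 0.894 and 0.721 FPKM in NS control and at 3.38, 3.94 and 4.04 FPKM in BCL9 KD, a log2 fold change of 1.64 (SE 0.127, limma adjusted p = 0.0056). Both encode interleukin-1, a main inducer of the chemokines. In both genes all BCL9 KD values were above all NS control values, as in 17.8% of all genes tested. Without NS control replicate 1 the log2 fold change of IL1A was 1.82. IL1RN, the interleukin-1 receptor antagonist, was below the filter at 0.108, 0.182 and 0.262 FPKM in NS control and 0.521, 0.479 and 0.510 FPKM in BCL9 KD. The receptor IL1R1 (log2 fold change −0.28, limma adjusted p = 0.232) and the IL-17 receptor IL17RA (−0.30, limma adjusted p = 0.0571) did not pass the test. Both had all BCL9 KD values below all NS control values, as had 16.4% of all genes tested. IL1RAP, the partner of IL1R1, overlapped between the groups (−0.04, limma adjusted p = 0.891). TNF had 30 reads over the 6 libraries and was not tested.

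All 22 NF-κB subunits and regulators of the list were tested, and 2 rose and 1 fell, beside 2.96% and 2.91% of all genes tested, with a median log2 fold change of 0.01 against 0.04 over all genes. NFKBIZ, a nuclear IκB protein that works with NF-κB, was at 2.80, 3.84 and 3.86 FPKM in NS control and at 6.24, 6.12 and 6.23 FPKM in BCL9 KD (log2 fold change 0.76, SE 0.122, limma adjusted p = 0.0274), or 0.62 without NS control replicate 1. IRAK2, a kinase downstream of the interleukin-1 receptor, rose by 0.56 (SE 0.0914, limma adjusted p = 0.0276). MYD88, the adaptor of the same receptor, fell by 0.49 (SE 0.0995, limma adjusted p = 0.0422). With each library left out in turn, the MYD88 call held only without NS control replicate 3. The feedback inhibitor NFKBIA did not pass (log2 fold change 0.34, limma adjusted p = 0.104). All its BCL9 KD values were above all NS control values, as in 17.8% of all genes tested. The subunits RELA (−0.12, limma adjusted p = 0.39) and NFKB1 (−0.02, limma adjusted p = 0.852) overlapped.

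Of 12 AP-1 and C/EBP factors, 10 were tested, with 2 that rose and 1 that fell, beside 2.96% and 2.91% of all genes tested. The median log2 fold change was −0.04. FOS rose by 0.76 (SE 0.127, limma adjusted p = 0.029) and CEBPD by 0.50 (SE 0.105, limma adjusted p = 0.045), or 0.60 without NS control replicate 1. FOSL2, the more abundant AP-1 subunit, fell by 0.46 (SE 0.0767, limma adjusted p = 0.029), from 57.6 to 65.1 FPKM in NS control to 43.9 to 47.7 FPKM in BCL9 KD. When each library was left out in turn, the calls of FOS and NFKBIZ held only without NS control replicate 1 or 3. That of CEBPD held only without NS control replicate 1. All 12 factors that control decay of chemokine mRNA were tested, and 1 rose and 0 fell, beside the same shares of all genes, with a median log2 fold change of −0.01. The gene that rose was ZC3H12A, also called Regnase-1, a nuclease that degrades inflammatory mRNAs, which went from 8.21, 8.74 and 8.32 FPKM to 12.0, 12.2 and 12.2 FPKM (log2 fold change 0.50, SE 0.0657, limma adjusted p = 0.0166). ZFP36, or tristetraprolin, overlapped between the groups (log2 fold change 0.13, limma adjusted p = 0.519).

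Genes that epithelia express along with these chemokines were, where called, all higher in BCL9 KD. Of 15 myeloid growth factors and neutrophil-linked epithelial genes, 10 were tested, 5 rose and 0 fell, beside 2.96% and 2.91% of all genes tested. The median log2 fold change was 0.70, against 0.04 over all genes. LCN2, lipocalin 2, which withholds iron from bacteria, was at 42.7, 45.2 and 47.6 FPKM in NS control and at 94.7, 133 and 135 FPKM in BCL9 KD (log2 fold change 1.39, SE 0.142, limma adjusted p = 0.0094). S100A9, a subunit of calprotectin, was at 56.1, 47.5 and 51.2 FPKM and then at 92.5, 114 and 111 FPKM (1.02, SE 0.104, limma adjusted p = 0.0094). Its partner S100A8 was far lower, at 0.569, 0.688 and 0.784 FPKM and then at 2.14, 2.95 and 2.54 FPKM (1.36, SE 0.146, limma adjusted p = 0.0102), with 197 reads in all. SAA1, a serum amyloid A protein that shares much of its sequence with SAA2, so that its reads may be split between them, rose by 1.10 (SE 0.186, limma adjusted p = 0.0291). LIF, a cytokine of the IL-6 family, rose by 0.385 (SE 0.0647, limma adjusted p = 0.0291), a small change in an abundant transcript. SAA2 (log2 fold change 0.81, limma adjusted p = 0.0951), CSF2 (0.59, limma adjusted p = 0.297) and ICAM1 (0.15, limma adjusted p = 0.24) did not pass the test. Neither did PTGS2 (0.0034, limma adjusted p = 0.992) and CSF1 (−0.16, limma adjusted p = 0.229). All BCL9 KD values of SAA2 and ICAM1 were above all NS control values, and those of CSF1 below, beside 17.8% and 16.4% of all genes tested. The neutrophil growth factor gene CSF3 had 9 reads and IL6 had 13, and neither was tested.

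The lists together held 120 genes, of which 68 were tested, 12 rose and 4 fell, beside 2.96% and 2.91% of all genes tested. Without NS control replicate 1 the count was 16, with 14 higher and 2 lower. Without NS control replicate 2 a single call was left, that of IL1B, and without BCL9 KD replicate 2 or 3 the count was 0. None of the 16 genes changed direction in any fit.

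**Figure D4:**
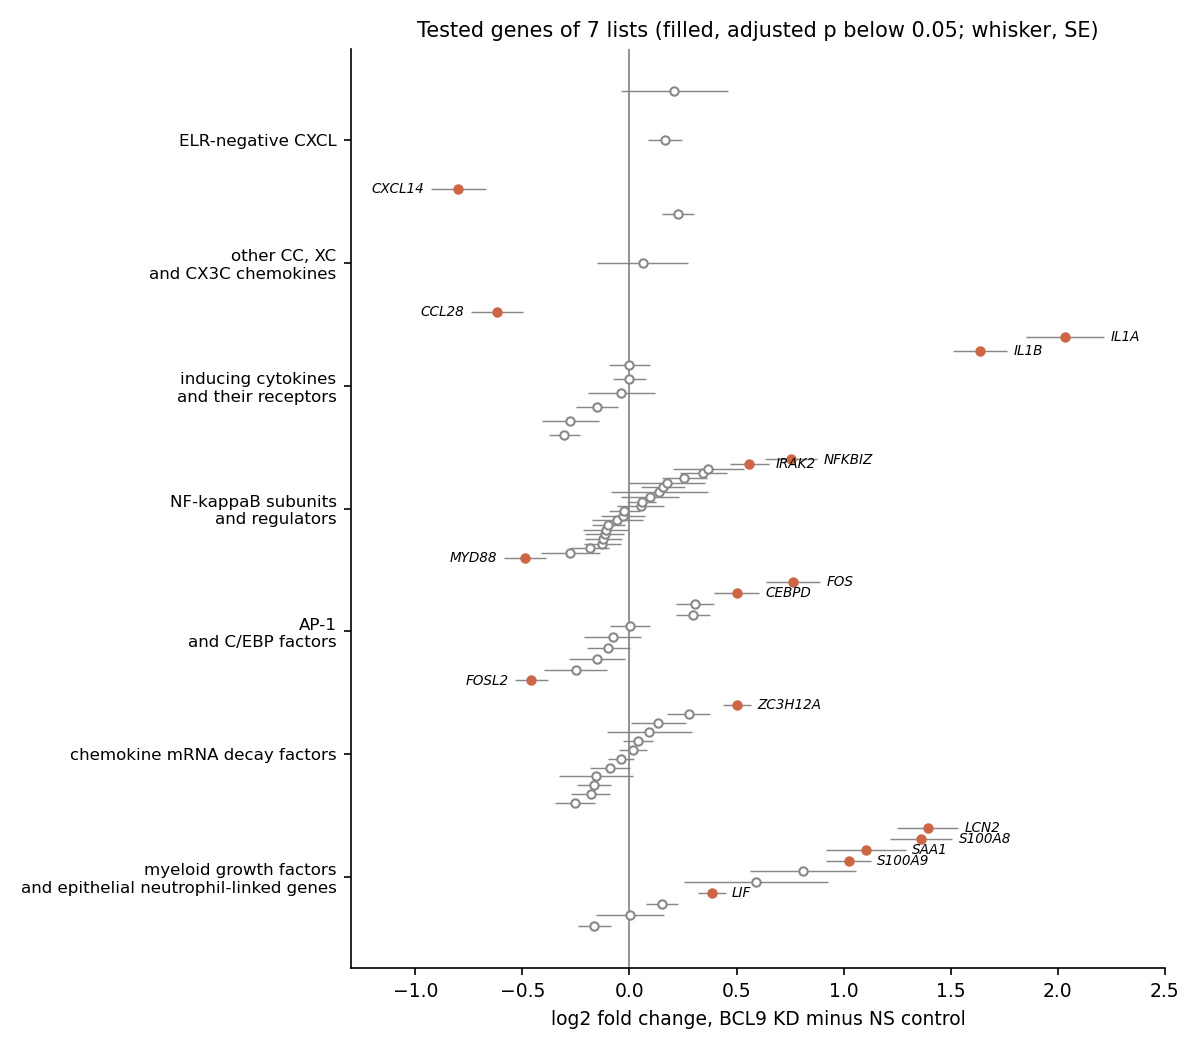
Log2 fold change, BCL9 KD minus NS control, with SE as whisker, of the 68 tested genes in 7 lists, each gene a point and filled where the limma adjusted p is below 0.05. IL1A (2.03) and IL1B (1.64) lie furthest to the right, and 5 of 10 neutrophil-linked genes are filled, while most NF-κB, AP-1, C/EBP and decay factors lie near 0.

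**Figure D5:**
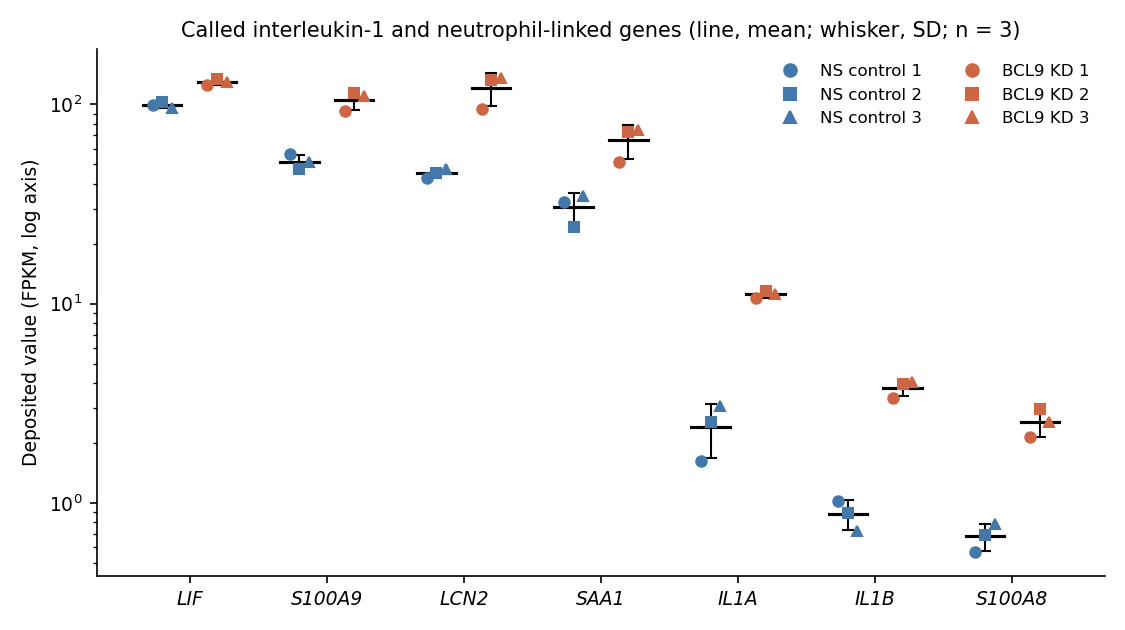
FPKM (log axis) of IL1A, IL1B and the 5 called neutrophil-linked genes in each NS control (blue) and BCL9 KD (orange) library, with marker shape for the replicate number, a line for the group mean and a whisker for the SD. In each gene the 3 BCL9 KD points lie above the 3 NS control points.

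The genes whose profile over the 6 libraries was most like the mean standardized profile of the 5 chemokines were TMSB4X (Pearson r = 0.999), MYL12B (0.999), RAB28 (0.999), AREG (0.998) and CSTA (0.997). TMSB4X encodes the actin-binding protein thymosin β4 and has near-identical pseudogenes that may share its reads. MYL12B encodes a myosin light chain, RAB28 a small GTPase and CSTA the keratinocyte protease inhibitor cystatin A. They were picked for this likeness out of all genes tested, from 6 libraries in 2 groups, so high values of r describe the group difference together with the low BCL9 KD replicate 1. CSTA, for example, was at 6.83, 6.59 and 7.18 FPKM in NS control and at 15.2, 21.9 and 22.4 FPKM in BCL9 KD.

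The libraries held the markers of a basal epithelial line. All 8 basal epithelial markers were tested and 0 were called, beside 5.87% of all genes tested, with a summed level of 1464 to 1541 FPKM in NS control and 1502 to 1520 FPKM in BCL9 KD. TP63 (log2 fold change 0.27, limma adjusted p = 0.18) had all BCL9 KD values above all NS control values and EGFR (−0.26, limma adjusted p = 0.129) had them all below, as did 17.8% and 16.4% of all genes tested. All 4 pan-epithelial markers were tested and 0 were called, and their summed level was 577 to 688 FPKM in NS control and lower without overlap in BCL9 KD, at 530.1 to 559.9 FPKM. KRT8 (log2 fold change −0.26, limma adjusted p = 0.144), KRT18 (−0.24, limma adjusted p = 0.207) and CDH1 (−0.16, limma adjusted p = 0.173) each had all BCL9 KD values below all NS control values, beside the 16.4% of all genes, and EPCAM overlapped. NS control replicate 1 was the highest control for KRT8, at 333 FPKM against 285 and 262. The same held for KRT18, at 205 FPKM against 165 and 161. Of 6 neutrophil markers, 3 had no reads, and the summed level was at most 0.0874 FPKM in any library. CSF3R, the one with the most reads, held 10, 10 and 6 in NS control and 1, 1 and 2 in BCL9 KD, and was not tested. Of 6 other leukocyte markers, the pan-leukocyte PTPRC had 1 read in all, and the sum was 0.294 to 0.560 FPKM in NS control and 0.837 to 1.44 FPKM in BCL9 KD, nearly all of it from CD14 (log2 fold change 0.73, limma adjusted p = 0.0811). Of 4 endothelial markers, only PECAM1 was tested, and it rose by 0.61 (limma adjusted p = 0.0477), as did 2.96% of all genes tested. The sum was 1.80 to 2.42 FPKM in NS control and 3.22 to 4.06 FPKM in BCL9 KD. CDH5 had 17 reads, VWF 24 and KDR 60 over all libraries. Of 5 fibroblast markers, 1 was tested and its groups overlapped, with a sum of 0.548 to 0.624 FPKM in NS control and 0.652 to 0.749 FPKM in BCL9 KD. The part of other cell types in the chemokine values was not tested beyond these levels.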

How the data were processed

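RNA was measured in 3 NS control and 3 BCL9 KD samples. The authors aligned reads to hg38 with STAR, counted them with HTSeq 0.6.1 and deposited FPKM for 58676 genes, together with gene length in bases (another unit). Strand settings are not given in the sources used here. The methods name 2 replicates, whereas the labels give 3. The depth of each library was estimated from its FPKM values and the gene lengths. FPKM multiplied by length and by that depth, with units scaled, gave whole reads for 100% of values (tolerance 0.1). Intervals and floors (3 reads) cover counting error only.

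The members, the gene lists and the tests were chosen with earlier results of these data known. Groups were compared with limma 3.58.1 (R 4.3.3, empirical Bayes with trend) on log2(FPKM + 0.5), over the 13745 genes with a mean of at least 0.5 FPKM, with Benjamini-Hochberg adjustment over all of them and a threshold of 0.05. This scale understates fold changes of low genes. Named genes were the 7 chemokines, BCL9, up to 5 called genes per list and up to 8 in the locus by size of change, and the 5 genes most like the chemokines. The uncalled genes named for context, the receptors, the marker genes and IL1RN, TNF, CSF3 and IL6 were chosen outside that rule after their values were seen. Same-numbered samples did not deviate together (correlations −0.147, −0.0884 and −0.00287), so no pairing was used.

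Promoters came from RefSeq (GRCh38.p14), where all 7 genes were matched. Transcript sequences of a GRCh37 annotation served only for GC content and shared windows. The GC correction was a loess curve per library. Alternatives were other pseudocounts, filters, scalings and limma settings, a replicate block, leaving out each library, voom on recovered reads, and the GC correction, the last 2 and their combination with the block added after seeing the data. Other tools were Python 3.11, numpy 2.4.6, pandas 2.3.3, scipy 1.17.1, biopython 1.88 and matplotlib 3.10.9.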

Additional observations from a re-analysis of the deposited data

How the results depend on the processing

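The 5 chemokines with reads, BCL9 and the called genes of the lists and of the locus did not reverse direction under any alternative tried. Genes named without a call, and PECAM1, were not followed in this way. The 807 calls over all genes became 142 with no filter on low FPKM, 536 with median-of-ratios scaling (238 higher and 298 lower), 332 in limma without the trend, 1403 with voom on recovered reads, 1607 with the GC correction (916 higher and 691 lower) and 154 with both the GC correction and the block (106 higher and 48 lower). With the replicate block alone limma called 0 genes, with 3235 at an unadjusted p below 0.05, and BCL9 was at −0.99 at an adjusted p of 0.0656. The counts ranged from 5 to 1712 when each library was left out in turn, and the share of higher calls from 40% to 66.7%. BCL9 then ranged from −1.06 to −0.95, and was not called without NS control replicate 2 (limma adjusted p = 0.0636), BCL9 KD replicate 2 (0.06) or BCL9 KD replicate 3 (0.07). With the quantile normalization 43.4% of calls were higher, against 50.4%.

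The chemokine calls, 4 as reported, were 1 with no filter, 0 with the replicate block, 5 with voom, 5 with the GC correction, 2 with the GC correction and the block, and 0 to 4 when each library was left out. The median chemokine difference was 1.61 with voom. The calls over the lists, 16 as reported, were 6 with no filter, 0 with the replicate block, 5 with the GC correction and the block, and 0 to 19 when each library was left out. The locus calls, 2 as reported, were 1 with no filter, 0 with the block, 4 with voom, 4 with the GC correction and 0 to 4 when each library was left out. Same-numbered samples did not deviate together over all genes, but this cannot exclude a pairing by replicate number. The block left the log2 differences of the 5 chemokines unchanged, so calls lost under it say nothing of the size of a difference. The cause of these movements was not tested. With 7 to 61 reads, CXCL3 is limited by counting error.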
